A study of Rattus norvegicus with 16 samples.

Results

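The carbonic anhydrases described here are 10 rat genes, Car2, Car3, Car4, Car5b, Car7, Car8, Car10, Car11, Car12 and Car14, chosen by name among the probes of a rat whole-genome expression array. A probe with the gene's name was matched for 9 of the 10, with 1 probe for each gene, out of 26583 gene names and 30367 probes in all, and Car10 was not analysed here. The genes were proposed with results of these arrays known, the fall of Car3 in TBI against Sham among them, so that contrast is given as a description with no test. Every other p-value below belongs to genes chosen with the same arrays in view.

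Hippocampal RNA of adult male Sprague-Dawley rats was hybridised to 16 Agilent arrays in a single colour. The groups were Naive (3 arrays, no surgery and no drug), Sham (2 arrays, anaesthetised and prepared but not injured), TBI (3 arrays, severe fluid percussion injury), TBI+PMI (3 arrays, injury and PMI-006 at 250 mg/kg by oral gavage), TBI+JM6 (3 arrays, injury and JM6 at 400 mg/kg by oral gavage) and TBI+E33 (2 arrays, injury and estradiol at 33 ug/kg by injection). Tissue was taken 24 h after the injury or its equivalent. Whether the TBI group received a vehicle was not given in the sources used here, and the labels do not say which of 2 amplification kits was used for which rat.

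Carbonic anhydrases are zinc enzymes that turn carbon dioxide and water into bicarbonate and a proton, and so set how quickly tissue can buffer acid. In brain the cytosolic enzyme Car2 is known from oligodendrocytes, glia and the choroid plexus, the cytosolic enzyme Car7 from neurons, and the membrane-bound forms Car4, Car12 and Car14 face the extracellular space or the lumen of vessels and epithelia. Car8, Car10 and Car11 are related proteins that lack the zinc-binding residues and have no carbonic anhydrase activity. Bicarbonate transporters, sodium-proton exchangers and lactate transporters work beside the enzymes in moving acid and base across membranes.

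The probes of Car3, its neighbour Car2, and the transmembrane enzymes Car12 and Car14 are printed to show what was measured, 5′ to 3′ in lower case, from the array's annotation on rat build rn4, and no gene model of that build was used to place them in exons or untranslated regions. The Car3 probe lies at chr2:88109979-88110038 on the minus strand, the Car2 probe at chr2:88077739-88077798 on the minus strand, the Car12 probe at chr8:71070670-71070729 on the plus strand and the Car14 probe at chr2:190684579-190684638 on the minus strand.
Car3: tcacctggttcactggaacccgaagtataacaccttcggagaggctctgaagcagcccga
Car2: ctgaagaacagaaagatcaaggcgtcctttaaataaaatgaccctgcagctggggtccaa
Car12: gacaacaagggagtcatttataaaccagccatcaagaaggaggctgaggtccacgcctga
Car14: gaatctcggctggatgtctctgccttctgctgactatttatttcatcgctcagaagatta
Car2 and Car3 are neighbours, and with the probes of Car1 and Car13 they span 195.25 kb of chromosome 2. The Car2 probe was spotted 10 times on each array and the other member probes 1 time each.

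All levels are log2 of the probe's intensity after division by the array's 75th percentile of the probes well above background, so 0 is the level of that percentile. Levels are compared between arrays for the same probe and never between probes. The 8 Naive, Sham and TBI arrays were scanned in a different session from the 8 drug arrays, and held 16282 to 18245 probes well above background against 20259 to 24984. Drug treatment and scan session therefore cannot be told apart in any comparison of a drug group with TBI. The arrays lay on 4 slides of 4. Slide 1 held Naive 1 and 2 and both Sham arrays, slide 2 Naive 3 and the TBI arrays, slide 3 the TBI+PMI arrays and TBI+JM6 1, and slide 4 TBI+JM6 2 and 3 and the TBI+E33 arrays. TBI and Sham share no slide, nor do TBI+PMI and TBI+E33, so in those contrasts the slide and the group can be separated only through the group that lay on both slides (Naive and TBI+JM6). Testing a probe required 1 or more groups whose arrays all measured it well above background. All 9 measured members passed, 8 of them well above background on all 16 arrays. The median of all tested probes was higher by 0.99 in TBI+JM6, 0.79 in TBI+PMI and 1.08 in TBI+E33 than in TBI, and by no more than 0.06 between Naive, Sham and TBI. Quantile normalization forces a common distribution on the arrays. It left those medians at -0.002, -0.01 and -0.003, and its values are given beside the members' differences between drug groups and TBI. Choroid plexus markers (8 genes, among them Ttr and Folr1) stood apart on 3 arrays, with a summed signal of 78.0 times the 75th percentile on Naive 2, 123 on Sham 1 and 155 on TBI+PMI 1, against 0.227 to 7.73 on all other arrays. In whole tissue, fewer cells of a type and less RNA per cell cannot be told apart.

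**Figure D1:**
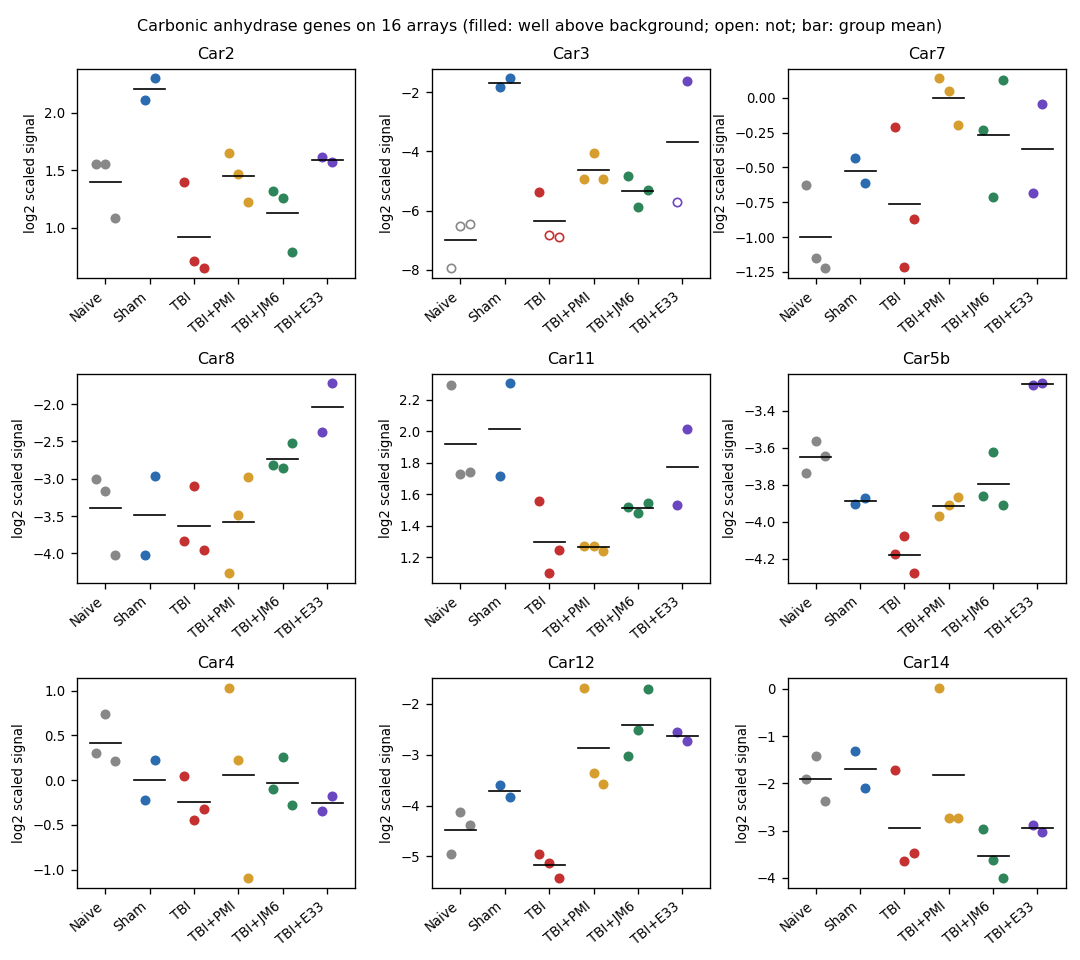
Log2 scaled signal of the 9 measured carbonic anhydrase genes (vertical axis) on each of 16 arrays by group (horizontal axis), filled where the probe was well above background, open where it was not, with a bar at the group mean. Car3 stands at -1.83 and -1.53 on the Sham arrays against -5.37 or lower on the TBI arrays, and Car12 is higher on every drug array than on any TBI array.

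Car3, a cytosolic enzyme of low hydratase activity known mainly from muscle, fat and liver, was far higher in Sham than in Naive or TBI. Its level was -1.83 and -1.53 in Sham, -7.95, -6.52 and -6.46 in Naive, and -5.37, -6.82 and -6.91 in TBI. The probe was well above background on both Sham arrays, on none of the 3 Naive arrays and on 1 of the 3 TBI arrays (TBI 1), and over all 16 arrays on 10. Car3 was thus tested through the Sham, TBI+PMI and TBI+JM6 groups, the groups with every array above background. The Sham spots had intensities of 457 and 497 and the TBI spots 34.3, 11.6 and 13.5, so the TBI and Naive levels lie at the edge of what the array measures.

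The log2 difference of Car3 in TBI against Sham was -4.69 (SE 0.91, n = 3 and 2), measured above background on 1 of the 3 TBI arrays, and -4.16 after quantile normalization. This contrast chose the gene and carries no test. Background subtraction by normexp, with an offset of 50 added to every spot, gave a difference of -1.99. That offset exceeds the TBI intensities given above and so shrinks the difference. The fit with the slide as a block gave -5.46. That fit links the slides of TBI and Sham only through the Naive arrays, none of which measured Car3 well above background. Against Naive, where no array detected it, Car3 was higher in Sham (log2 difference 5.30, SE 0.91, limma adjusted p = 0.00654, and 0.0255 after quantile normalization). With each Naive level raised to the dimmest detected level of its array, the fold was 20.7. Undetected probes can lie above that level, so this fold is not a strict lower bound. The comparison of Sham with Naive shares its Sham arrays with the contrast that chose the gene and is no independent support for it. Within slide 1, which held both Sham arrays and Naive 1 and 2, the difference was 5.56 (adjusted p = 0.0779). It was 2.65 after normexp (adjusted p = 0.417) and 5.68 without the 3 arrays high in choroid plexus markers (adjusted p = 0.0666). In TBI against Naive Car3 differed by 0.61 (SE 0.81, adjusted p = 0.739, 95% interval -1.15 to 2.37).

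On the drug arrays Car3 was well above background on 3 of 3 TBI+PMI arrays (levels -4.93, -4.06 and -4.94), on 3 of 3 TBI+JM6 arrays (-4.82, -5.88 and -5.29) and on 1 of 2 TBI+E33 arrays (-5.72 and -1.62). In TBI+JM6 against TBI the difference was 1.04 (adjusted p = 0.262) and turned to -0.87 after quantile normalization (adjusted p = 0.508), and in TBI+PMI against TBI it was 1.73 (adjusted p = 0.0855) and 0.14 (adjusted p = 0.933). The TBI+E33 pair differed by more than any other pair of replicates for this gene, and TBI+E33 2 alone reached the Sham range. The rise in TBI+E33 against TBI was 2.69 (SE 0.91, adjusted p = 0.0187), but it was 2.42 without TBI 3 (adjusted p = 0.0560), 0.65 without TBI+E33 2 (adjusted p = 0.437), 0.94 after quantile normalization (adjusted p = 0.545), and the groups overlapped. The within-group SD of Car3, 1.11, lay at percentile 97.9 of all tested probes.

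Summed markers of muscle and fat, tissues known for Car3, overlapped between Sham, Naive and TBI. The summed signal of 6 skeletal muscle markers was 0.122 to 0.136 in Sham, 0.102 to 0.152 in Naive and 0.0722 to 0.151 in TBI, and 0.272 to 0.497 on the drug arrays, while the muscle creatine kinase gene Ckm was not well above background on any of the 8 Naive, Sham and TBI arrays. The 6 adipocyte markers summed to 0.197 and 0.286 in Sham, 0.0858 to 0.335 in Naive and 0.0981 to 0.301 in TBI, and the lipid droplet gene Plin1 was well above background on none of the 16 arrays. The adipokine gene Adipoq was well above background on 3 arrays (Naive 2, Sham 1 and TBI+PMI 1). Of the 6 markers in each list, only 1 to 3 were well above background on any Naive, Sham or TBI array. No liver markers were listed. The part of these tissues in the Car3 values was not tested.

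Car2, the abundant fast cytosolic enzyme, had the highest levels in Sham, at 2.11 and 2.30. It stood at 1.56, 1.55 and 1.09 in Naive and at 1.40, 0.71 and 0.64 in TBI. The Sham arrays lay above all Naive and TBI arrays, while Naive and TBI overlapped. In TBI against Sham the difference of Car2 was -1.29 (SE 0.26, 2.45-fold lower), a description with no test, and -0.82 with the slide as a block. It was higher in Sham than in Naive by 0.81 (SE 0.26, adjusted p = 0.0769) and lower in TBI than in Naive by a difference of -0.48 (adjusted p = 0.256), neither of which passed the test.

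The drug arrays held Car2 at 1.65, 1.47 and 1.22 in TBI+PMI, 1.32, 1.26 and 0.79 in TBI+JM6 and 1.62 and 1.57 in TBI+E33. Car2 was called higher in TBI+E33 than in TBI (0.68, SE 0.26, adjusted p = 0.0326), which is -0.40 relative to the shift of all probes, and 0.05 after quantile normalization (adjusted p = 0.913). The call was lost without any of TBI 2, TBI 3, TBI+E33 1 or TBI+E33 2 (0.54 to 0.70, adjusted p = 0.0870 to 0.116). The 0.21 of TBI+JM6 against TBI turned to -0.41 after quantile normalization, and the 0.53 of TBI+PMI (adjusted p = 0.0653) became 0.06, with no value passing the test.

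Oligodendrocyte markers moved with Car2. Their mean log2 level over 8 genes, all of them well above background on every array, was 2.98 and 3.1 in Sham, 2.46, 2.50 and 2.21 in Naive, and 2.64, 1.84 and 1.58 in TBI, and Car2 tracked it with r = 0.87 over 16 arrays after centring each scan session. For Car3 the same measure gave r = 0.71, and r = 0.70 with 6 neuronal markers, whose summed signal was 19.4 to 21.2 in Sham, 14.6 to 15.8 in Naive and 11.2 to 15.8 in TBI. These arrays share depth, dissection and scaling, and the part of the oligodendrocyte or neuronal markers in these results was not tested.

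Car7, the cytosolic enzyme of neurons, spread widely within TBI, at -0.21, -1.22 and -0.87, and overlapped there with Naive (-0.62, -1.15 and -1.22) and Sham (-0.43 and -0.61). Its differences were -0.24 in TBI against Sham (no test), 0.23 in TBI against Naive (adjusted p = 0.718) and 0.47 in Sham against Naive (adjusted p = 0.432). It stood at 0.14, 0.05 and -0.20 in TBI+PMI, just above all TBI arrays, and the rise against TBI was called (0.76, SE 0.29, adjusted p = 0.0394). Relative to the shift of all probes that difference was -0.03, and after quantile normalization it was 0.19 (adjusted p = 0.674). Without the 3 arrays high in choroid plexus markers it was 0.69 (adjusted p = 0.139), and the call was also lost without any of TBI 2, TBI 3, TBI+PMI 1 or TBI+PMI 2 (0.54 to 0.74). In TBI+JM6 (-0.23, -0.71 and 0.13) and TBI+E33 (-0.68 and -0.05) differences from TBI of 0.49 and 0.40 became -0.25 and -0.37 after quantile normalization, with no value passing the test. Car7 followed the 6 hippocampus markers, among them Prox1 and Neurod6, with r = 0.81 over 16 arrays after centring each scan session. With the 6 neuronal markers its r was 0.37. At least 5 of the 6 hippocampus markers were well above background on every array, and their summed signal was 7.34 to 8.27 in Naive, 12.9 to 13.5 in Sham, 5.97 to 11.2 in TBI and 9.77 to 16.8 on the drug arrays. Their part in the Car7 values was not tested.

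Car8 and Car11 are the inactive relatives. Car8, which binds the inositol trisphosphate receptor and is best known from Purkinje cells, lay at -3.00, -3.17 and -4.02 in Naive, -4.02 and -2.96 in Sham, and -3.84, -3.10 and -3.95 in TBI, with the 3 groups overlapping. Levels on the drug arrays were -4.27, -3.49 and -2.98 in TBI+PMI, -2.82, -2.86 and -2.52 in TBI+JM6, and -2.37 and -1.72 in TBI+E33. TBI+E33 was called higher than TBI (1.59, SE 0.44, adjusted p = 0.00657), 0.51 above the shift of all probes, and 0.43 after quantile normalization (adjusted p = 0.537). It lost the call without TBI+E33 2 (1.26, adjusted p = 0.0775). The TBI+JM6 difference of 0.90 (adjusted p = 0.0558) turned to -0.27 after quantile normalization, and that of TBI+PMI went from 0.05 to -1.05 (adjusted p = 0.0900).

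Car11, an inactive relative expressed mainly in brain, was lower on every TBI array than on any Sham or Naive array. Its levels were 1.56, 1.10 and 1.24 in TBI, 2.29, 1.73 and 1.74 in Naive, and 1.72 and 2.31 in Sham. The difference was -0.71 (SE 0.24) in TBI against Sham, with no test, and -0.62 (SE 0.21, adjusted p = 0.112) in TBI against Naive, which did not pass the test. Drug arrays stood at 1.27, 1.27 and 1.24 in TBI+PMI, 1.52, 1.48 and 1.54 in TBI+JM6, and 1.53 and 2.02 in TBI+E33. The TBI+JM6 and TBI+E33 differences from TBI, 0.21 and 0.47, became -0.38 and -0.13 after quantile normalization, that of TBI+PMI went from -0.04 to -0.49, and none passed the test.

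Car5b, the mitochondrial enzyme, varied least within groups, with an SD of 0.0940 at percentile 0.155 of all tested probes. Its levels were -3.74, -3.56 and -3.64 in Naive, -3.90 and -3.87 in Sham, and -4.18, -4.08 and -4.28 in TBI, so that the 3 groups stood in that order without overlap. Car5b fell by 0.53 in TBI against Naive (SE 0.13, 1.44-fold, adjusted p = 0.0385). That call was lost after quantile normalization (-0.56, adjusted p = 0.0980), after normexp (-0.046, adjusted p = 0.967), with the slide as a block (-0.53, adjusted p = 0.607) and without any of Naive 1, Naive 2, Naive 3, TBI 2 or TBI 3 (-0.58 to -0.48, adjusted p = 0.0731 to 0.135). Sham differed from Naive by -0.24 (adjusted p = 0.373).

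The drug arrays held Car5b at -3.97, -3.91 and -3.87 in TBI+PMI, -3.86, -3.62 and -3.91 in TBI+JM6, and -3.26 and -3.25 in TBI+E33. Its direction against TBI depended on the scaling in all 3 drug groups. TBI+JM6 differed by 0.38 (SE 0.13, adjusted p = 0.0206) with 75th percentile scaling and by -1.09 (adjusted p = 0.00227) with quantile normalization, and the former call was lost without TBI 3 (0.33, adjusted p = 0.0744) or TBI+JM6 2 (0.29, adjusted p = 0.0930). TBI+PMI differed by 0.26 (adjusted p = 0.103) and by -0.97 (adjusted p = 0.00592), and TBI+E33 by 0.92 (SE 0.15, adjusted p = 0.000196) and by -0.61 (adjusted p = 0.0586). Relative to the shift of all probes the 3 differences were -0.61, -0.53 and -0.15.

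Car4, the lipid-anchored enzyme of brain capillaries, was lower on every TBI array (0.04, -0.45 and -0.32) than on any Naive array (0.30, 0.74 and 0.21), and overlapped with Sham (-0.23 and 0.23). The difference from Naive was -0.66 (SE 0.40, adjusted p = 0.389), and from Sham -0.24. TBI+PMI ranged from -1.09 to 1.03, with its highest value on TBI+PMI 1, TBI+JM6 from -0.27 to 0.26, and TBI+E33 was at -0.34 and -0.17. No comparison of Car4 passed the test, and against TBI the values of TBI+JM6 (0.21) and TBI+PMI (0.30) became -0.50 and -0.25 after quantile normalization, while that of TBI+E33 went from -0.01 to -0.76. Over the 16 arrays, after centring each scan session, Car4 followed the meningeal markers (r = 0.71) and choroid plexus markers (r = 0.58) as well as the endothelial markers (r = 0.47). The 5 meningeal markers summed to 22.9, 106 and 24.2 in Naive, 31.5 and 48.1 in Sham, 7.31 to 21.8 in TBI and 70.5 on TBI+PMI 1, and Car4 was highest on Naive 2 and TBI+PMI 1. The part of these markers in the Car4 values was not tested.

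Car12, a transmembrane enzyme with an extracellular active site and a known target of hypoxia signalling, was called higher than TBI in all 3 drug groups with 75th percentile scaling, and no drug array overlapped with TBI. Its levels were -4.96, -5.13 and -5.42 in TBI, against -1.69, -3.37 and -3.57 in TBI+PMI, -3.02, -2.52 and -1.72 in TBI+JM6, and -2.55 and -2.73 in TBI+E33. Naive stood at -4.95, -4.12 and -4.38 and Sham at -3.60 and -3.83, so every TBI array lay below every array of the other 5 groups.

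Car12 rose against TBI by 2.75 in TBI+JM6 (SE 0.44, adjusted p = 0.000184), by 2.30 in TBI+PMI (SE 0.44, adjusted p = 0.000959) and by 2.53 in TBI+E33 (SE 0.49, adjusted p = 0.000771). These are 1.76, 1.51 and 1.46 above the shift of all probes. After quantile normalization the differences were 1.44 (adjusted p = 0.0305), 1.09 (adjusted p = 0.0993) and 1.04 (adjusted p = 0.149), so the direction held in all 3 and the call in TBI+JM6 alone. With normexp the TBI+PMI and TBI+E33 differences were 0.998 (adjusted p = 0.315) and 1.32 (adjusted p = 0.144). Without the 3 arrays high in choroid plexus markers TBI+PMI differed by 1.70 (adjusted p = 0.00376). In TBI against Sham Car12 differed by -1.46 (SE 0.49), with no test, in TBI against Naive by -0.69 (adjusted p = 0.412), and in Sham against Naive by 0.77 (adjusted p = 0.399). After the same centring Car12 followed choroid plexus markers with r = 0.65, neuronal markers with r = 0.64 and meningeal markers with r = 0.61 over the 16 arrays, and their part in its values was not tested.

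Car14, a transmembrane enzyme of neuronal membranes and epithelia, followed the choroid plexus markers over the arrays with r = 0.82 after centring each scan session. Its r was 0.71 with red blood cell markers, 0.68 with meningeal markers, -0.56 with astrocyte markers and -0.55 with microglial markers. Its levels were -1.91, -1.42 and -2.36 in Naive, -1.31 and -2.09 in Sham, and -1.71, -3.65 and -3.47 in TBI, and its highest value of the 16, 0.02, was on TBI+PMI 1, against -2.74 and -2.73 on the other TBI+PMI arrays. TBI+JM6 held -2.97, -3.61 and -4.00 and TBI+E33 -2.88 and -3.02. Groups overlapped between Naive, Sham and TBI, with differences of -1.24 in TBI against Sham (no test), -1.05 in TBI against Naive (adjusted p = 0.419) and 0.19 in Sham against Naive (adjusted p = 0.920). In TBI+PMI against TBI the difference of 1.13 (adjusted p = 0.168) was 0.21 without TBI+PMI 1, and 0.30 after quantile normalization (adjusted p = 0.806). In TBI+JM6 against TBI it was -0.58 (adjusted p = 0.448) and -1.89 after quantile normalization (adjusted p = 0.0750), and in TBI+E33 against TBI -0.0052 (adjusted p = 0.995) and -1.30 (adjusted p = 0.276). The part of these marker lists in the Car14 values was not tested. The within-group SD of Car14, 0.93, lay at percentile 95.4 of all tested probes.

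**Figure D2:**
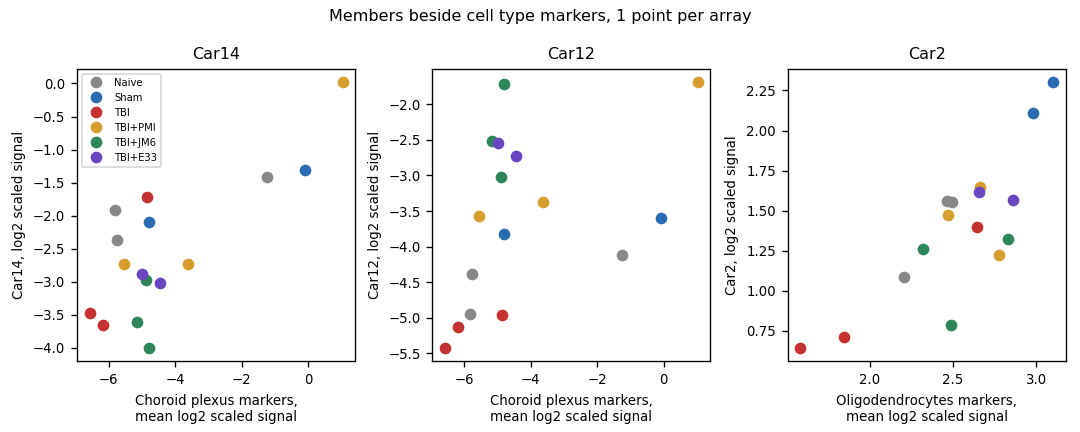
Log2 scaled signal of Car14, Car12 and Car2 (vertical axes) against the mean log2 scaled signal of choroid plexus or oligodendrocyte markers (horizontal axes), with 1 point per array coloured by group. The TBI+PMI array with the most choroid plexus signal has the highest Car14 value, 0.02, and also the highest Car12 value, -1.69, and the correlations over the 16 arrays after centring each scan session are 0.82 for Car14, 0.65 for Car12 and 0.87 for Car2.

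Counted together, the 9 genes were lower in TBI than in Sham in 9 of 9 cases, with a median difference of -0.71, and 5 of them (Car2, Car3, Car5b, Car11 and Car12) had no overlap between the groups. The Car8 difference of -0.14 turned to 0.39 without Sham 2, 0.022 without TBI 3, 0.19 after normexp and 0.80 with the slide as a block, where Car4 turned to 0.066 and Car7 to 0.098, and Car5b turned to 0.12 after normexp. Over all tested probes the median difference was -0.03, limma called 9.41 percent of probes in this contrast, and 24.3 percent were lower without overlap. Because this contrast entered the choice of the genes, nothing is read from that count. In TBI against Naive 7 of 9 were lower, with a median of -0.53 beside 0.04 for all probes, and 1 of 9 was called (Car5b), where 4.71 percent of all probes were called. In that contrast 4 of 9 (Car4, Car5b, Car11 and Car12) were lower without overlap, where 10.4 percent of all probes were. In Sham against Naive 6 of 9 were higher and 1 of 9 was called (Car3), where 8.08 percent of all probes were called, and 4 of 9 were higher without overlap beside 25.1 percent. The contrasts share arrays with each other, so their counts are not separate evidence.

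Against TBI, limma called 2 of 9 genes higher in TBI+JM6 (Car5b and Car12), 2 of 9 in TBI+PMI (Car7 and Car12) and 5 of 9 in TBI+E33 (Car2, Car3, Car5b, Car8 and Car12). Those counts stand beside 69.9, 56.7 and 70.2 percent of all probes called higher, and the members' shares, 22.2, 22.2 and 55.6 percent, do not exceed them. Above the shift of all probes lay 2 of 9 in TBI+JM6 (Car3 and Car12), 3 of 9 in TBI+PMI (Car3, Car12 and Car14) and 3 of 9 in TBI+E33 (Car3, Car8 and Car12). With quantile normalization, 1 of 9 was higher and 8 lower in TBI+JM6, 5 and 4 in TBI+PMI, and 4 and 5 in TBI+E33, and the calls were Car12 higher and Car5b lower in TBI+JM6, Car5b lower in TBI+PMI and none in TBI+E33. Quantile normalization called 27.2, 19.2 and 20.4 percent of all probes in the 3 contrasts, of which 13.9, 9.96 and 10.4 percent of probes were higher and 13.3, 9.21 and 10 percent lower. The 3 drug contrasts share the TBI arrays.

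**Figure D3:**
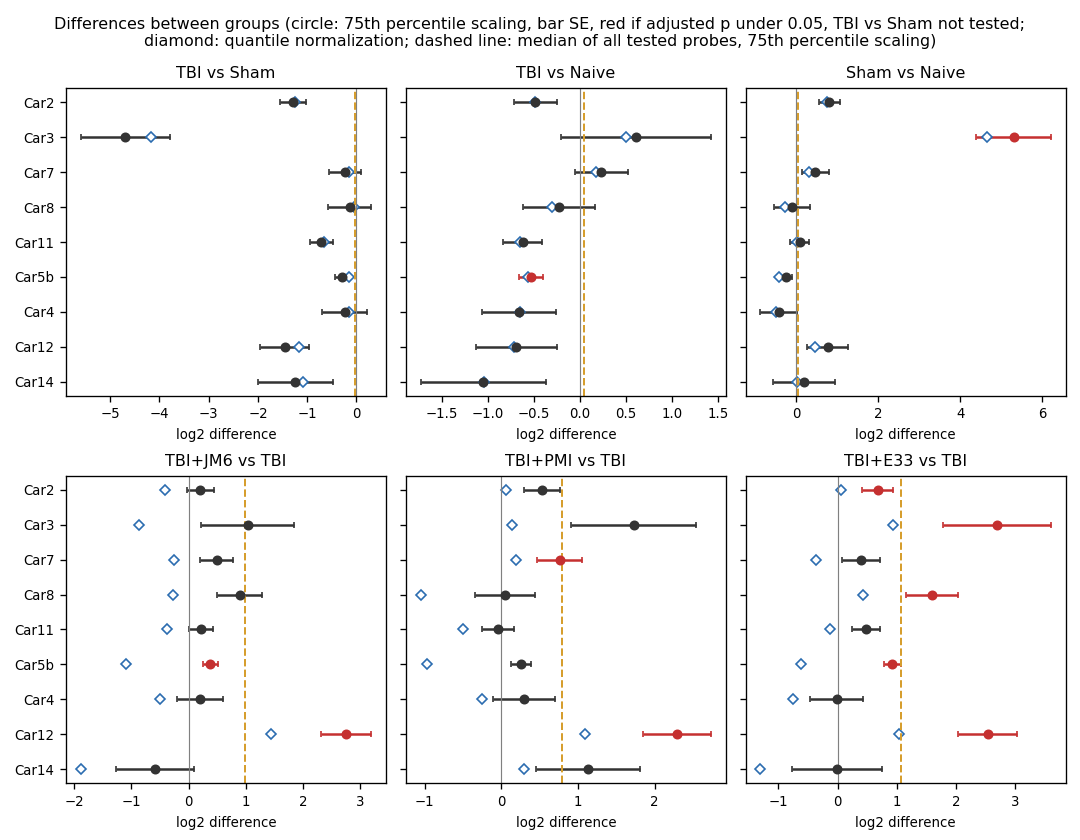
Log2 differences of the 9 genes (horizontal axes) in 6 comparisons, with circles for 75th percentile scaling (bars 1 SE, red where the adjusted p passed 0.05, no test in TBI vs Sham), diamonds for quantile normalization and a dashed line at the median of all tested probes. In the drug comparisons most genes lie left of the dashed line and Car12 lies right of it in all 3, at 2.75, 2.30 and 2.53.

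The drug groups were compared with each other within their own scan session, which asks whether the 3 treatments left the enzymes at different levels. Doses and routes differed between the treatments, so the values stand side by side, and TBI+PMI and TBI+E33 lay on different slides. Limma called 0 of 9 genes in each of the 3 contrasts, where it called 0.0131 percent of all probes in TBI+JM6 against TBI+PMI, 0.0175 percent in TBI+JM6 against TBI+E33 and 0.110 percent in TBI+PMI against TBI+E33. With these few arrays the intervals are wide and do not show that the groups were alike.

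The Car5b difference was -0.66 for TBI+PMI against TBI+E33 (95% interval -0.98 to -0.34, adjusted p = 0.109) and -0.54 for TBI+JM6 against TBI+E33 (-0.86 to -0.22, adjusted p = 0.999967). Car8 differed by -1.54 between TBI+PMI and TBI+E33 (-2.49 to -0.59, adjusted p = 0.155) and by 0.85 between TBI+JM6 and TBI+PMI (-0.00036 to 1.70, adjusted p = 0.565). Car11 differed by -0.51 between TBI+PMI and TBI+E33 (-1.02 to -0.00050, adjusted p = 0.333). With the slide as a fixed block the TBI+PMI against TBI+E33 differences were -0.56 for Car5b, -1.40 for Car8 and -0.52 for Car11, none of which passed the test, and that of Car12 turned from -0.24 to 0.67, while with the slide as a random block the Car5b difference passed the test (-0.67, adjusted p = 0.0345). Car14 differed by -1.71 between TBI+JM6 and TBI+PMI (-3.19 to -0.24, adjusted p = 0.50), a value that includes the TBI+PMI array with high choroid plexus markers. For Car12 the intervals were -0.50 to 1.42 for TBI+JM6 against TBI+PMI, -0.85 to 1.29 for TBI+JM6 against TBI+E33 and -1.31 to 0.83 for TBI+PMI against TBI+E33.

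**Figure D4:**
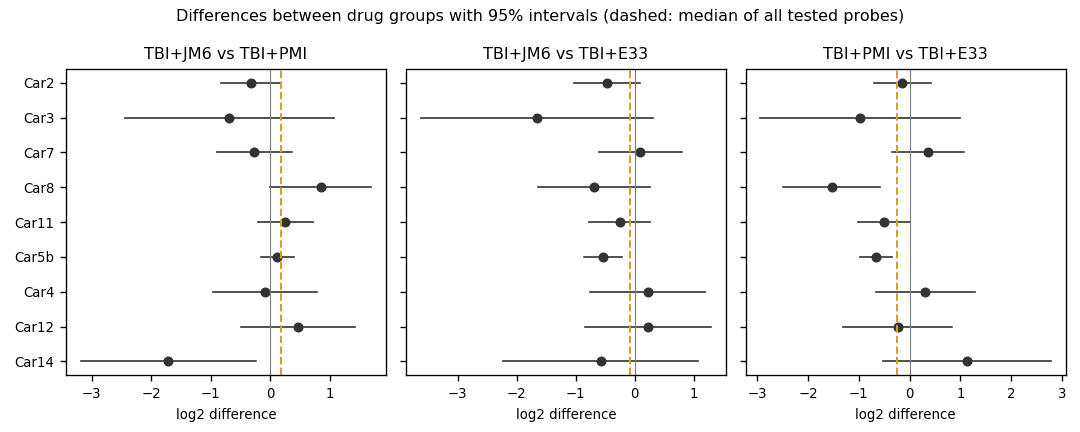
Log2 differences of the 9 genes between drug groups (horizontal axes) with their 95% intervals, and a dashed line at the median of all tested probes. Car5b, Car8, Car11 and Car14 have intervals away from 0 in at least 1 panel, such as -0.98 to -0.34 for Car5b in TBI+PMI against TBI+E33, though none passed the adjusted test.

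Of the other carbonic anhydrases on the array, Car1, Car6, Car9 and Car15 were tested, and Car5a and Car13 were too dim, with 1 of 16 arrays well above background for Car5a and 3 and 1 of 16 for the 2 Car13 probes. None of the 4 was called in TBI against Naive, TBI against Sham or Sham against Naive, where Car1, the red cell enzyme, differed by 1.08 in Sham against Naive (adjusted p = 0.0727). Car9, a membrane enzyme also known as a target of hypoxia signalling, was well above background on 3 of 3 TBI+JM6, 2 of 3 TBI+PMI and 2 of 2 TBI+E33 arrays, and on 0 of 3 Naive, 1 of 2 Sham and 0 of 3 TBI arrays. It was tested only through TBI+JM6 and TBI+E33, so it had to be high there. With TBI levels raised to the dimmest detected level of each array, its fold over TBI was 2.69 with JM6, 2.02 with PMI-006 and 2.04 with estradiol. All 3 differences were called (limma adjusted p = 0.000162, 0.000855 and 0.00124), and because of that filter nothing is read from these p-values. After quantile normalization the Car9 differences were 0.53, 0.35 and -0.25 and all 3 calls were lost (adjusted p = 0.415, 0.627 and 0.766).

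Car6, the secreted enzyme, was called higher by its brighter probe in TBI+JM6 (0.46, adjusted p = 0.0391) and TBI+E33 (0.80, adjusted p = 0.00442), and these values became -0.32 (adjusted p = 0.196) and 0.0058 (adjusted p = 0.987) after quantile normalization. Its second, dimmer probe had group means of -5.65 in TBI, -3.61 in TBI+JM6, -3.95 in TBI+PMI and -3.40 in TBI+E33, a wider gap than the brighter probe showed. Car15 was well above background on 2 of 3 TBI+JM6 and 2 of 2 TBI+E33 arrays and on no other. It was tested through TBI+E33 alone, so it had to be high there. With TBI levels raised to the dimmest detected level of each array, its fold over TBI was 1.64 with JM6 and 1.89 with estradiol. Both differences were called (limma adjusted p = 0.00625 and 0.00549), and because of that filter nothing is read from these p-values. The Car15 differences turned to -0.69 (adjusted p = 0.104) and -0.80 (adjusted p = 0.108) after quantile normalization. In TBI+PMI, with no array above background, Car15 was called lower after quantile normalization (-1.20, adjusted p = 0.0180) and not with 75th percentile scaling (0.38, adjusted p = 0.391). Called higher against TBI were thus 3 of the 4 in TBI+JM6 (Car6, Car9 and Car15), 1 in TBI+PMI (Car9) and 3 in TBI+E33 (Car6, Car9 and Car15), beside 69.9, 56.7 and 70.2 percent of all probes. Because Car9 and Car15 passed the filter only through drug groups, nothing is read from these counts.

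Acid-base transport genes came from a list of 29, of which 27 had a probe and 24 were tested. In TBI against Sham 17 of 24 were lower and 7 higher. Limma called 1 lower (Slc4a3, an anion exchanger of neurons, -0.70, adjusted p = 0.0432) and none higher, beside 9.41 percent of all probes called. In TBI against Naive 14 of 24 were lower and 10 higher, of which 3 were called lower and none called higher, beside 4.71 percent of all probes called. The 3 called genes follow. These were Slc4a4, the sodium bicarbonate cotransporter of astrocytes (-1.32, SE 0.22, adjusted p = 0.00941), Slc9a5, a neuronal sodium-proton exchanger (-1.26, SE 0.22, adjusted p = 0.0104), and Slc4a3 (-0.88, SE 0.18, adjusted p = 0.0182). Levels of Slc4a4 were -1.15, -1.24 and -1.39 in Naive, -2.05 and -1.69 in Sham, and -2.0, -3.03 and -2.69 in TBI. Every Naive array thus lay above every Sham and TBI array, while Sham and TBI overlapped. Slc9a5 also fell in Sham against Naive (-0.99, adjusted p = 0.0283), the only call of the list in that contrast.

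Against TBI the list had 14 of 24 genes called higher in TBI+JM6, 12 in TBI+PMI and 12 in TBI+E33, beside 69.9, 56.7 and 70.2 percent of all probes, and none lower. With quantile normalization none was called higher and 5, 2 and 3 of 24 were called lower. Of all probes, 13.9, 9.96 and 10.4 percent were then called higher and 13.3, 9.21 and 10 percent lower. The largest called rises were Slc16a3, a lactate exporter (1.91, adjusted p = 0.00753), Slc4a7, a sodium bicarbonate cotransporter (1.83, adjusted p = 6.25e-05), and Slc9a7, an exchanger of intracellular membranes (1.64, adjusted p = 0.000346), in TBI+JM6. In TBI+PMI they were Slc4a1, the red cell anion exchanger (1.85, adjusted p = 0.0137), Slc9a7 (1.39, adjusted p = 0.00152) and Slc16a7, a neuronal monocarboxylate transporter (1.38, adjusted p = 0.000134). In TBI+E33 they were Slc9a7 (1.68, adjusted p = 0.000679), Slc4a7 (1.65, adjusted p = 0.000317) and Slc4a1 (1.52, adjusted p = 0.0450). After quantile normalization none of these 9 values passed the test, and Slc9a7 turned to -0.11, -0.13 and -0.34 in TBI+JM6, TBI+PMI and TBI+E33, and Slc4a1 to -0.55 in TBI+E33.

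**Figure D5:**
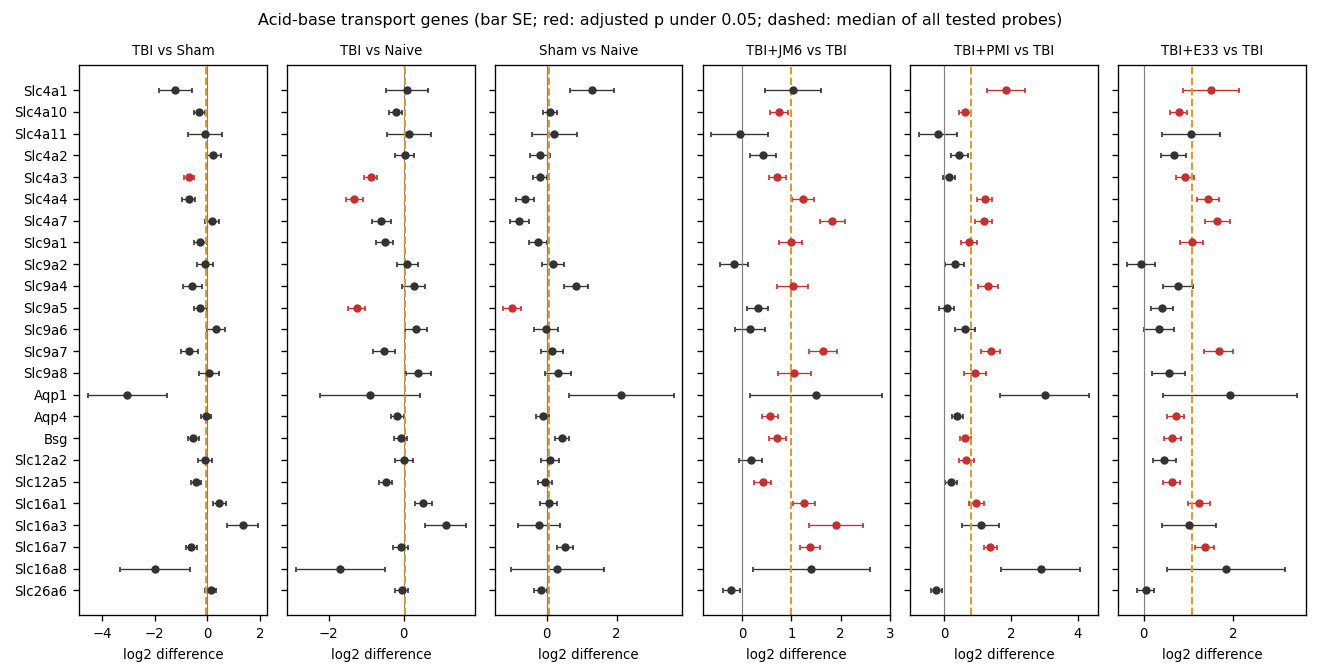
Log2 differences of the 24 tested acid-base transport genes (horizontal axes) in 6 comparisons, bars 1 SE, red where the adjusted p passed 0.05, with a dashed line at the median of all tested probes. The calls in TBI against Naive are the falls of Slc4a4, Slc9a5 and Slc4a3, and the drug calls are spread around the dashed line.

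The likeness of other genes to each member was measured as Pearson's r over the 16 arrays after centring each scan session, as a description of arrays that share scaling and dissection. Closest to Car2 were Abhd14b, Gstt3 and Ppp1r1b (r = 0.93 each), and closest to Car3 were Sh3bgrl1 (0.91), Phospho2 (0.90) and Scrn3 (0.89). Car12 was most like Pdk1 (0.89), Rbm18 (0.86) and Apln (0.86), and Car14 most like Enpp2 (0.92), Nrn1l (0.90) and the choroid plexus gene Otx2 (0.89). Car8 was most like Nelfb (0.94), Pnmt (0.89) and Rbm10 (0.88), and Car11 most like Rxrb (0.95), Tafa5 (0.94) and Morn4 (0.94). For Car4 the closest were Sil1 (0.88), Vwa3a (0.87) and Tex15 (0.86), for Car5b Atp13a4, Plxdc2 and Itih3 (0.89 each), and for Car7 F12 (0.88), Sertad4 (0.85) and Zfp46 (0.85). Among the members themselves the neighbours Car2 and Car3 had the highest r, 0.68, and Car8 and Car14 the lowest, -0.51.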

How the data were processed

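The deposited files are scanner output of single-colour Agilent rat arrays, from which the authors extracted intensity with Agilent Feature Extraction 9.5.3.1, with background-subtracted processed signals and well-above-background flags. The authors' series matrix holds a ratio for each probe and served as an alternative. The paper's methods describe scaling each array by its 75th percentile among probes above background. The matrix values nevertheless differed from those scaled here. In TBI+JM6 against TBI, Car2, Car3, Car4, Car5b, Car7, Car8 and Car11 were lower in the matrix and higher with the scaling used here. Quantile normalization also gave lower values for these genes. The reason for the difference was not tested. 42877 spots gave 30367 probes, and 22827 probes well above background on all arrays of at least 1 group were tested. Signals were divided by each array's 75th percentile of the probes well above background, and log2 values were fitted with limma 3.58.1 (R 4.3.3) over all 16 arrays and 6 groups, with 10 residual degrees of freedom, two-sided contrasts and Benjamini-Hochberg adjustment over all tested probes. A call is an adjusted p under 0.05. The script was tested on simulated data. Figures were drawn with matplotlib 3.10.9 (Python 3.11.15).

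The members and lists were chosen with earlier results of these data known. Named genes are all members, the other carbonic anhydrases, up to 3 called genes with the largest rise and fall per comparison from the acid-base list, and the 3 genes most like each member. The methods give 3 rats per group, and 16 arrays were analysed here. The labels number the arrays of a group without naming the animals, so p-values measure the spread between these arrays, and the number of arrays limits the precision. Where no array of the dimmer group was well above background, a reduced fold is given, with that group's levels raised to the dimmest detected level of each array. Undetected probes can lie above that level, so such a fold is not a strict lower bound. The alternatives were 75th percentile over all probes, quantile normalization, normexp background correction, the series matrix, other filters, a GC trend removed, slide and replicate blocks, the mean of a gene's probes, the methods' t-test, and each array left out. Normexp was run with an offset of 50 added to every spot, which shrinks the differences of dim probes. Leaving out the 3 arrays with high choroid plexus markers was chosen after seeing the data. Of the 12 marker lists, those of neurons, astrocytes, endothelial cells, microglia, red blood cells, meninges and Purkinje cells are given with the other observations.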

Additional observations from a re-analysis of the deposited data

How the results depend on the processing

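Counts of called genes depended on scaling, background correction and the choice of arrays. They take calls in both directions together, so an equal or smaller count can hold other genes or the other direction. Among the carbonic anhydrases, TBI against Naive went from 1 to 0 under quantile normalization, normexp, the series matrix, no filter, the slide as a fixed block, a fit of only the 2 groups, the methods' t-test with Benjamini-Hochberg adjustment and without the 3 arrays high in choroid plexus markers, and to 2 under the methods' t-test (without each replicate in turn 0 to 1). Sham against Naive went from 1 to 0 under normexp, the fixed slide block, the adjusted t-test and without the 3 arrays, and to 2 under the methods' t-test (leave-one-out 1 to 1). TBI+JM6 against TBI went from 2 to 1 under normexp (leave-one-out 1 to 3). It stayed at 2 under quantile normalization, with Car12 called higher and Car5b called lower in place of 2 called higher. TBI+PMI against TBI went from 2 to 1 under quantile normalization, the series matrix, no filter, the adjusted t-test and without the 3 arrays, to 0 under normexp and to 4 with the slide as a random block (leave-one-out 1 to 4). Under quantile normalization that 1 call was Car5b lower, where the 2 were Car7 and Car12 higher. TBI+E33 against TBI went from 5 to 1 with the 75th percentile over all probes, to 0 under quantile normalization, normexp and the series matrix, to 3 with only the 2 groups and under the methods' t-test, and to 2 under the adjusted t-test (leave-one-out 2 to 5). Between drugs the methods' t-test called 1 gene in TBI+JM6 against TBI+E33 and in TBI+PMI against TBI+E33, where the random slide block also called 1, and leave-one-out gave 0 to 0.

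Of the acid-base genes, TBI against Sham went from 1 to 0 under 75th percentile over all probes, quantile normalization, normexp, the series matrix, no filter, the fixed slide block, the replicate block, only the 2 groups, the adjusted t-test and without the 3 arrays, to 3 under the methods' t-test and to 2 with the mean of a gene's probes (leave-one-out 0 to 4). TBI against Naive went from 3 to 0 under normexp, the fixed slide block, only the 2 groups and the adjusted t-test (leave-one-out 2 to 5). Sham against Naive went from 1 to 0 under those and without the 3 arrays, to 2 with the 75th percentile over all probes and to 3 under the methods' t-test (leave-one-out 0 to 1). Against TBI, 75th percentile over all probes, quantile normalization, normexp and the series matrix gave 6, 5, 7 and 4 in TBI+JM6 in place of 14, 4, 2, 3 and 2 in TBI+PMI in place of 12, where the adjusted t-test gave 7, and 4, 3, 6 and 3 in TBI+E33 in place of 12 (leave-one-out 11 to 14, 8 to 15 and 9 to 14). The 14, 12 and 12 were all called higher, while the 5, 2 and 3 under quantile normalization were all called lower. Quantile normalization called 27.2, 19.2 and 20.4 percent of all probes, in both directions together.

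The Car3 difference in TBI against Sham was -1.99 under normexp, -3.94 in the series matrix, -5.46 with the fixed slide block and -5.19 to -4.42 with each replicate left out. Single genes turned direction as follows, most of them in drug comparisons, where scaling moves the median of all probes.
With the 75th percentile over all probes the reversed differences were Car2 -0.58, Car4 -0.58, Car5b -0.41, Car7 -0.29 and Car11 -0.57 in TBI+JM6 against TBI, Car2 -0.11, Car4 -0.35, Car5b -0.38 and Car8 -0.60 in TBI+PMI against TBI, Car2 -0.15, Car7 -0.43 and Car11 -0.36 in TBI+E33 against TBI, Car2 0.040 in TBI+PMI against TBI+E33, Car5b -0.025 in TBI+JM6 against TBI+PMI and Car11 -0.028 in Sham against Naive. Under quantile normalization the reversed differences were Car2 -0.41, Car3 -0.87, Car4 -0.50, Car5b -1.09, Car7 -0.25, Car8 -0.27 and Car11 -0.38 in TBI+JM6 against TBI, Car2 0.010 and Car12 0.048 in TBI+PMI against TBI+E33, Car4 -0.25, Car5b -0.97 and Car8 -1.05 in TBI+PMI against TBI, Car5b -0.61, Car7 -0.37 and Car11 -0.13 in TBI+E33 against TBI and Car5b -0.12 in TBI+JM6 against TBI+PMI. In the series matrix the reversed differences were Car2 -0.39, Car3 -0.97, Car4 -0.48, Car5b -1.03, Car7 -0.23, Car8 -0.26 and Car11 -0.37 in TBI+JM6 against TBI, Car2 0.021 and Car12 0.057 in TBI+PMI against TBI+E33, Car4 -0.22, Car5b -0.82 and Car8 -0.93 in TBI+PMI against TBI, Car5b -0.58, Car7 -0.35 and Car11 -0.12 in TBI+E33 against TBI and Car5b -0.21 in TBI+JM6 against TBI+PMI. Under normexp the reversed differences were Car3 -0.21, Car5b -0.26, Car8 -0.14 and Car11 0.14 in TBI+PMI against TBI, Car3 0.86 and Car4 0.011 in TBI+JM6 against TBI+PMI, Car5b 0.47, Car7 -0.10 and Car14 0.30 in TBI+JM6 against TBI+E33, Car7 -0.0079 in TBI+PMI against TBI+E33, Car8 0.070 and Car12 0.035 in TBI against Naive and Car14 0.17 in TBI+JM6 against TBI. Without the 3 arrays high in choroid plexus markers the reversed differences were Car4 -0.19 in TBI+PMI against TBI, Car4 0.40 in TBI+JM6 against TBI+PMI, Car4 -0.18 in TBI+PMI against TBI+E33 and Car8 0.55 in Sham against Naive. With the slide as a random block the reversed differences were Car4 0.0094 in TBI+E33 against TBI. With the slide as a fixed block the reversed differences were Car8 0.39 in TBI against Naive, Car12 -0.14 in TBI+JM6 against TBI+PMI, Car12 0.67 in TBI+PMI against TBI+E33 and Car14 -0.040 in Sham against Naive. With the GC trend removed the reversed differences were Car8 0.018 in Sham against Naive and Car14 0.0027 in TBI+E33 against TBI. Leaving out each replicate turned the direction of Car8 (-0.67 to 0.39) in TBI against Sham, Car3 (-3.71 to 0.39), Car7 (-0.22 to 0.41) and Car12 (-0.13 to 0.52) in TBI+JM6 against TBI+E33, Car3 (-3.02 to 1.08), Car4 (-0.18 to 0.89) and Car12 (-0.83 to 0.11) in TBI+PMI against TBI+E33, Car4 (-0.19 to 0.87), Car8 (-0.25 to 0.39) and Car11 (-0.14 to 0.091) in TBI+PMI against TBI, Car4 (-0.12 to 0.13) and Car14 (-0.36 to 0.61) in TBI+E33 against TBI, Car4 (-0.67 to 0.40) in TBI+JM6 against TBI+PMI, Car7 (-0.043 to 0.46) in TBI against Naive, Car8 (-0.62 to 0.44), Car11 (-0.20 to 0.39) and Car14 (-0.20 to 0.58) in Sham against Naive and Car14 (-0.94 to 0.033) in TBI+JM6 against TBI.

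Between arrays of different groups with the same replicate number, correlations of the deviations from the group means ran from -0.18 to 0.18. Their median was 0.019, and 3 of 36 were over 0.1. For arrays with different numbers the range was -0.18 to 0.21 and the median -0.013, and 4 of 70 were over 0.1. With groups of 2 or 3 arrays, each centred on its own mean, these values cannot decide whether the numbers pair samples. With the replicate block Car3 in TBI against Sham was -4.65, Car14 in Sham against Naive turned to -0.10, Car2 in TBI+PMI against TBI (0.53, adjusted p = 0.0200) and Car8 in TBI+JM6 against TBI (0.90, adjusted p = 0.0471) passed the limma test, and 8 of 16 arrays correlated best with their own number. Signal over background limits Car3, which lay at background on 6 of 16 arrays.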

Other observations

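Marker lists not described in full above were summed per array, as multiples of the 75th percentile. Neuronal markers (6 genes) lay between 14.6 and 15.8 in Naive, between 19.4 and 21.2 in Sham, between 11.2 and 15.8 in TBI, between 16.6 and 20.7 in TBI+PMI, between 19.4 and 24.3 in TBI+JM6 and between 20.5 and 21.4 in TBI+E33. Astrocyte markers (6 genes) lay between 24.3 and 27.5 in Naive, between 22.9 and 25.4 in Sham, between 25.5 and 25.8 in TBI, between 30.4 and 44.5 in TBI+PMI, between 48.9 and 52.8 in TBI+JM6 and between 50.3 and 52.2 in TBI+E33. Microglial markers (5 genes) lay between 4.84 and 5.27 in Naive, between 5.24 and 8.24 in Sham, between 6.78 and 8.94 in TBI, between 6.66 and 9.40 in TBI+PMI, between 9.06 and 10.8 in TBI+JM6 and between 9.06 and 10.3 in TBI+E33. Endothelial markers (5 genes) lay between 2.37 and 4.59 in Naive, between 4.13 and 4.70 in Sham, between 2.03 and 3.42 in TBI, between 3.88 and 3.94 in TBI+PMI, between 3.38 and 6.15 in TBI+JM6 and between 4.98 and 5.04 in TBI+E33. Red blood cell markers (5 genes) lay between 30.1 and 87.6 in Naive, between 49.3 and 63.8 in Sham, between 32.6 and 57.8 in TBI, between 43.7 and 83.8 in TBI+PMI, between 31.5 and 46.3 in TBI+JM6 and between 34.8 and 57.8 in TBI+E33. Meningeal markers (5 genes) lay between 22.9 and 106 in Naive, between 31.5 and 48.1 in Sham, between 7.31 and 21.8 in TBI, between 8.56 and 70.5 in TBI+PMI, between 8.43 and 12.1 in TBI+JM6 and between 12.2 and 12.9 in TBI+E33. Purkinje cell markers (4 genes) lay between 0.379 and 5.37 in Naive, between 0.479 and 5.56 in Sham, between 0.217 and 4.13 in TBI, between 4.65 and 5.77 in TBI+PMI, between 4.71 and 6.22 in TBI+JM6 and between 5.32 and 5.96 in TBI+E33. Purkinje cells are those best known for Car8, and the mean log2 level of their markers correlated with it at r = 0.06 over 16 arrays after centring each scan session. By the same measure the r of Car8 was 0.56 with skeletal muscle, 0.55 with astrocyte and -0.46 with choroid plexus markers. The part of these lists in the Car8 values was not tested. In the marker sums, too, drug treatment and scan session cannot be told apart.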
